A study of Mus musculus with 17 samples.

Results

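Abcg5, Abcg8, Abca1, Nr1h3, Nr1h2 and Scarb1 carry sterols out of liver cells, take them up, or sense them, and their RNA and H3K9ac were followed in mouse liver under 2 diets. A gene was included where its symbol was 1 of these 6, and a region of H3K9ac where the authors' table gave 1 of the 6 as the gene of its nearest start site. This gave 6 of 12334 genes in the RNA table and 74 of 57499 regions in the H3K9ac table: 1 of Abcg5, 18 of Abcg8, 17 of Abca1, 6 of Nr1h3, 2 of Nr1h2 and 30 of Scarb1. C57BL/6 mice, a standard inbred laboratory strain, ate for 10 weeks either a high-fat diet (HFD, 60% of calories from fat) or a control diet (CD, 18% of calories from fat), and whole liver was taken from each. No other allele or agent is named in the labels. Polyadenylated RNA was sequenced from livers A, B, C and D of each diet, and chromatin bound by an antibody to H3K9ac from CD livers A, C and D and HFD livers A, B and D. H3K9ac is histone H3 acetylated at lysine 9, a mark of active promoters and enhancers. The design text gives 4 mice, and no label says whether a letter marks the same mouse in both assays. The p-values measure the spread between these libraries.

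Abcg5 and Abcg8 are half-transporters that work only as a heterodimer, which moves cholesterol and plant sterols from the hepatocyte into bile at the canalicular membrane. Abca1 loads cholesterol and phospholipid onto apolipoprotein A-I at the basal side, the first step in making high-density lipoprotein (HDL), and Scarb1 (SR-BI) takes cholesteryl esters from HDL back into the cell. Nr1h3 (LXR-alpha) and Nr1h2 (LXR-beta) are nuclear receptors that bind oxysterols, pair with RXR on DNA and switch on genes of sterol efflux and fatty acid synthesis, among them Abca1, Abcg5 and Abcg8.

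Abcg5 and Abcg8 lie head to head on chromosome 17 and share 1 promoter, and its sequence is shown because the H3K9ac change with the smallest p among the regions of the 6 genes lies over it. In RefSeq (GRCm38.p6) the Abcg5 start is at 84683011 on the minus strand and the Abcg8 start at 84683121 on the plus strand, 110 bases apart. The window of 250 bases before to 50 after the Abcg8 start is chr17:84682871-84683170, plus strand, with each GATAA (the letters of a GATA box, read on either strand) in capitals:
Abcg8 and Abcg5 shared promoter: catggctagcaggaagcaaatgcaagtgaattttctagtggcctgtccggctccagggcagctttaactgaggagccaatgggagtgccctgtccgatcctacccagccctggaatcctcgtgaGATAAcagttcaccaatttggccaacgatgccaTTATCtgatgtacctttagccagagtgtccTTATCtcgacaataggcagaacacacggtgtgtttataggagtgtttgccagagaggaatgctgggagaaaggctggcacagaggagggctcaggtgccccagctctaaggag
GATAA was found at 3 places in this window. On the scale where the Abcg8 start is 1, their first bases lie at -126, -93 and -63, and 2 of the 3 lie between the start sites. Among 32851 RefSeq promoter windows of 300 bases, 25.4% held GATAA at least once on either strand and 0.938% held it at 3 or more places. The windows of Abcg5 and Abcg8 share 209 bases, so the matches in them are the same 3 places. TATAAA was found once, at -31 on the strand that runs towards Abcg5, and 13.6% of the windows held it.

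The Abca1 promoter is shown because it holds the kind of element through which LXR acts, a direct repeat with 4 spacer bases. The pattern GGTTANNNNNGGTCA was spelled after the element known from this promoter, so its presence is no finding. The window is chr4:53159846-53160145, read on the minus strand, with the match in capitals:
Abca1 promoter: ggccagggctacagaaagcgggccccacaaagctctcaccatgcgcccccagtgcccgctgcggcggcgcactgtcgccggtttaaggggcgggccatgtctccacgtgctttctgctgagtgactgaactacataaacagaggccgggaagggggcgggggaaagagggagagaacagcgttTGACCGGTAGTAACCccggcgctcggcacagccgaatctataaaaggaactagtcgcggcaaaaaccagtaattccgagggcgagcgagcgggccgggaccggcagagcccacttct
The match starts at -67 from the Abca1 start, and 16 of the 32851 windows (0.0487%) held the pattern on either strand. The single half-site AGGTCA, held by 16.3% of windows, was not found in the 300-base windows of the 5 members that had one (Abcg5, Abcg8, Abca1, Nr1h3 and Nr1h2), which says only that these letters are not there. Matches are descriptions of sequence, and no factor binding was measured. In the authors' annotation (mm10), Abcg5 spans chr17:84658234-84682923 on the minus strand and Abcg8 chr17:84676302-84700333 on the plus strand, a span that begins at an upstream form of Abcg8. Abca1 spans chr4:53030789-53159895, Nr1h3 chr2:91184061-91195116, Nr1h2 chr7:44549616-44553965 and Scarb1 chr5:125277087-125341094, all on the minus strand.

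The RNA of Abcg5, Abcg8 and Scarb1 rose under HFD, while that of Abca1, Nr1h3 and Nr1h2 did not pass the test. Diets were compared by edgeR's quasi-likelihood test on the deposited read counts, and an adjusted p (Benjamini-Hochberg, over the 12334 genes) under 0.05 counted as passing. By this test 7.27% of all genes were called in either direction and 3.63% as higher under HFD, against 3 of the 6 genes here, all higher. The 6 genes were chosen with earlier results of these data known, so their share cannot be read against that of all genes. Levels are in CPM, a gene's reads as a share of its library scaled to a common total. Changes are the log2 ratio, HFD to CD, with their standard error (SE). The diets did not overlap in the same 3 genes. Over all genes, 14.3% had diets that did not overlap. These are bulk samples, in which fewer cells of a type and less RNA per cell cannot be told apart.

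Of the receptors, Nr1h3 was measured at 83, 68.1, 74 and 73.9 CPM in CD livers A, B, C and D and at 103, 89.4, 87 and 81 CPM in the 4 HFD livers. The HFD livers were the higher on average, but HFD liver D lay below CD liver A. The mean was 74.7 ± 6.16 CPM under CD and 90 ± 9.21 under HFD (SD, n = 4 each), a log2 change of 0.27 (SE 0.10) that did not pass in edgeR (adjusted p = 0.167, unadjusted p = 0.0255). With the level of macrophage markers added as a term, an alternative chosen after seeing the data, the change was 0.28 and its adjusted p was 0.0475.

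Nr1h2 was measured at 26.2, 26.4, 24.7 and 28.9 CPM under CD and 28.5, 27.7, 24.7 and 26.5 CPM under HFD. The ranges of the diets covered each other almost fully. The log2 change was 0.02 (SE 0.09, edgeR adjusted p = 0.959).

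To ask whether the balance of the receptors shifted, their levels per transcript length (FPKM, fragments scaled to transcript length and library size, from the authors' log2 FPKM values) were divided within each liver. The ratio of Nr1h3 to Nr1h2 was 3.14, 2.56, 2.97 and 2.53 under CD and 3.57, 3.2, 3.49 and 3.03 under HFD. The means were 2.8 ± 0.302 and 3.32 ± 0.252 (SD, n = 4 each), with CD liver A above the lowest HFD liver. The log2 difference of 0.25 gave p = 0.0571 in a two-sided exact permutation test over 70 arrangements, and 0.0571 after adjustment over the 2 ratios tested. The smallest p that 4 livers against 4 can give is 0.0286. Without CD liver A the log2 difference was 0.31 with an exact p of 0.0286. Without any other single liver the exact p lay between 0.0571 (without HFD liver D) and 0.143 (without HFD liver A).

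**Figure D1:**
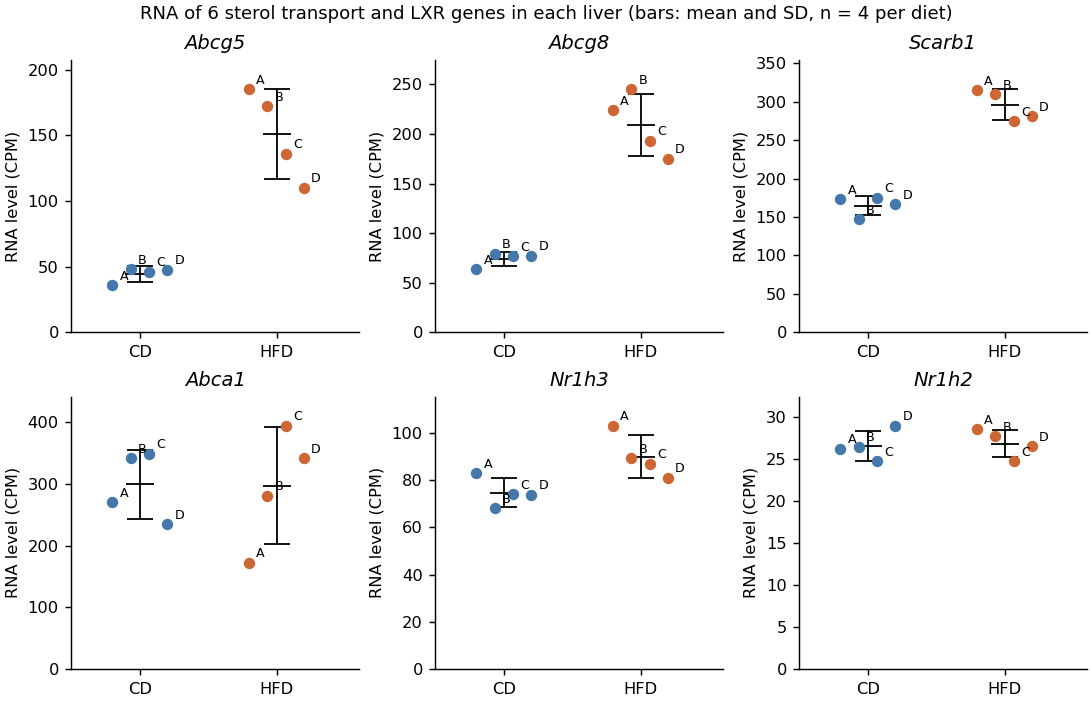
RNA level in CPM (vertical axes, from 0) of the 6 genes in each liver under CD (blue) and HFD (orange). Letters name the livers, and black bars are the mean and SD of 4 livers. The diets do not overlap in Abcg5, Abcg8 and Scarb1, and they overlap in Abca1, Nr1h3 and Nr1h2.

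Abcg5 had the largest RNA change of the 6 genes. Its level was 35.7, 48.2, 46.1 and 47.7 CPM in CD livers A to D and 185, 172, 136 and 110 CPM in HFD livers A to D. Every HFD liver lay above every CD liver, and the HFD livers ranged more widely than the CD livers. The means of 44.4 ± 5.9 and 151 ± 34.1 CPM (SD, n = 4 each) differed 3.4-fold, a log2 change of 1.76 (SE 0.17, edgeR adjusted p = 0.000237).

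Abcg8, its partner, was measured at 63.7, 79.3, 76.9 and 77.1 CPM under CD and 224, 245, 193 and 175 CPM under HFD. The diets were again fully apart, and liver A was the lowest of the CD livers in both genes. The means were 74.3 ± 7.12 and 209 ± 31.3 CPM (SD, n = 4 each), a 2.82-fold difference with a log2 change of 1.49 (SE 0.13, edgeR adjusted p = 0.000127). The exons of the 2 genes in the authors' annotation overlap by 40 bases on opposite strands, 1.77% of the Abcg5 and 1.07% of the Abcg8 exon bases. Whether reads were counted by strand is not given in the sources used here.

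Per transcript length, the partners were level with each other under CD and Abcg5 was the higher under HFD. The lengths are those of the authors' annotation, 2263 bases for Abcg5 and 3749 for Abcg8, whose span begins at its upstream form. The level of Abcg8 against Abcg5 depends on these lengths. The Abcg8 to Abcg5 ratio in FPKM was 1.08, 0.993, 1.01 and 0.975 in CD livers and 0.731, 0.858, 0.856 and 0.959 in HFD livers. All HFD ratios lay below all CD ratios, HFD liver D only just. The mean fell from 1.01 ± 0.0448 to 0.851 ± 0.0934 (SD, n = 4 each), a log2 difference of -0.26 with an exact permutation p of 0.0286, two-sided, the smallest that this design allows. After adjustment over the 2 ratios the p was 0.0571 and did not pass. Before adjustment, the exact permutation p was 0.0571 without any single CD liver and 0.0286 without any single HFD liver.

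Abca1, which exports cholesterol towards HDL, showed no diet difference beyond its spread. It was measured at 270, 342, 349 and 235 CPM under CD and 172, 281, 394 and 342 CPM under HFD. HFD livers held both the lowest and the highest value of all 8. The means were 299 ± 55.5 and 297 ± 95.2 CPM (SD, n = 4 each), and the log2 change was -0.01 (SE 0.23, edgeR adjusted p = 0.993). Its SE was the largest of the 6 genes, and leaving out single livers moved the change between -0.17 and 0.17.

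Markers of other liver cells also varied between livers. The summed level of 12 sinusoidal endothelium markers was 218, 230, 303 and 234 CPM in CD livers A to D and 179, 208, 361 and 355 CPM in HFD livers A to D. That of 15 measured macrophage and Kupffer cell markers was 334, 380, 296 and 266 CPM under CD and 201, 306, 374 and 552 CPM under HFD. HFD liver A had the lowest sums of both lists and the lowest Abca1, and HFD liver C, with the highest Abca1, had the highest endothelium sum. Other livers differed from this order in the macrophage list: HFD liver D had the highest macrophage sum with Abca1 at 342 CPM, and CD liver C the highest Abca1 of its diet with a macrophage sum of 296 CPM. In the endothelium list CD liver C kept to the order, with the highest sum of its diet at 303 CPM. CD liver D did not, as it had the lowest Abca1 of its diet, 235 CPM, but a higher endothelium sum than CD livers A and B. With the endothelium or the macrophage level as a term, chosen after seeing the data, the Abca1 change was -0.14 or -0.11, respectively. The part of these cells in the Abca1 level was not tested.

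**Figure D2:**
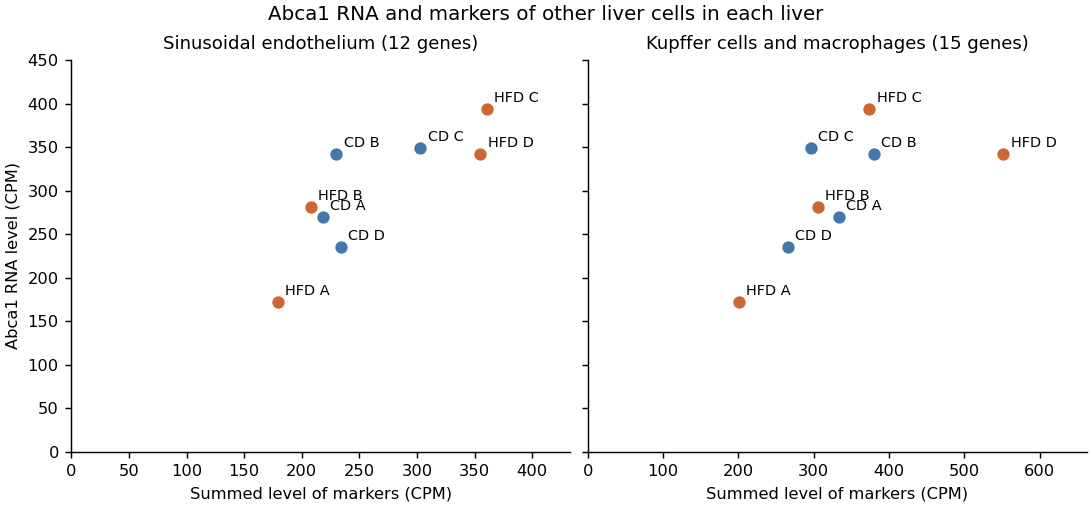
Abca1 RNA level in CPM (vertical axis) against the summed level in CPM of 12 sinusoidal endothelium markers (left) and 15 macrophage and Kupffer cell markers (right), 1 point per liver, CD blue and HFD orange. HFD liver A, at 172 CPM of Abca1, is lowest on all axes, and HFD livers C and D have the highest endothelium sums.

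Scarb1, the HDL receptor, rose with little spread. It was measured at 173, 147, 175 and 167 CPM under CD and 315, 310, 275 and 281 CPM under HFD. The HFD livers lay far above all CD livers, with a gap wider than the range within either diet. The means of 165 ± 12.8 and 296 ± 20.2 CPM (SD, n = 4 each) differed 1.79-fold, a log2 change of 0.84 (SE 0.10, edgeR adjusted p = 0.000687).

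In the order of FPKM levels, Scarb1 stood first under both diets, with means of 53.4 under CD and 95.4 under HFD, above 90.9% and 94.3% of all measured genes. Under CD it was followed by Nr1h3 at 36.7, Abca1 at 29.1, Abcg8 at 19.8, Abcg5 at 19.6 and Nr1h2 at 13.2 FPKM. The livers' ranges of Nr1h3 and Abca1 overlapped, as did those of Abcg8 and Abcg5. Under HFD, Abcg5 at 66.7 and Abcg8 at 55.8 FPKM came next, ahead of Nr1h3 at 44.2, Abca1 at 29 and Nr1h2 at 13.3. There the ranges of Abcg5 and Abcg8 overlapped, and so did those of Abcg8 and Nr1h3.

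Over 6 lists of other sterol-related genes, 15 of 104 measured genes (14.4%) passed in either direction, against 7.27% of all genes. The lists were chosen with earlier results of these data known, which may have raised this share. Without CD liver A 9 passed, and without HFD liver B 8. Of 20 LXR target genes other than the members, 2 rose and 1 fell, with a median log2 change of 0.15 against 0.01 over all genes. Those that rose were Srebf1, the transcription factor of fatty acid synthesis, from 235 ± 95.7 to 568 ± 103 CPM (log2 change 1.27, edgeR adjusted p = 0.0144), and Rnf145, a ubiquitin ligase of sterol sensing, from 16.1 ± 0.918 to 23.5 ± 1.57 CPM (0.55, edgeR adjusted p = 0.00689). Lpl, lipoprotein lipase, fell from 34 ± 7.24 to 19.3 ± 5.24 CPM (-0.82, edgeR adjusted p = 0.0423; SD, n = 4 each for these genes). The cholesterol exporter Abcg1 had a log2 change of 0.46 (edgeR adjusted p = 0.292) and the desaturase Scd1 one of -0.01 (edgeR adjusted p = 0.987), and neither passed. Pltp, at -0.78, came close to passing in the other direction (edgeR adjusted p = 0.0549). At an unadjusted p under 0.05, 2 of the 20 were higher and 2 lower. Without HFD liver B only 1 of the 20 passed, and without CD liver A, B or C 2 did.

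None of 20 LXR partners and coregulators passed in edgeR, while 6 had an unadjusted p under 0.05 and DESeq2 called 1. Rxra, the partner receptor, was at 395 ± 36.5 CPM under CD and 494 ± 54 under HFD (SD, n = 4 each), a log2 change of 0.32 (edgeR adjusted p = 0.132). Without HFD liver A, 3 of the 20 passed.

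Among 11 measured genes that form or clear oxysterols, the ligands of LXR, 2 fell and none rose, with a median log2 change of 0.02. They were the hydroxylases Cyp7b1 (log2 change -1.08, edgeR adjusted p = 0.0318) and Cyp27a1 (-0.41, edgeR adjusted p = 0.0331). At an unadjusted p under 0.05, 4 others were higher, and DESeq2 called 4 genes. None passed in edgeR without CD liver A, B or C or HFD liver B, and 1 passed without CD liver D or HFD liver C or D.

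Of 21 measured genes of HDL and lipoprotein handling, 3 rose and none fell (1 was lower at an unadjusted p under 0.05, and DESeq2 called 4 in either direction). Their median log2 change was 0.18. The genes were Lipg, an HDL phospholipase (1.47, edgeR adjusted p = 0.000637), Vldlr, a receptor of triglyceride-rich lipoproteins (1.94, edgeR adjusted p = 0.00273), and Cd36, a scavenger receptor for fatty acids and oxidised lipoproteins (0.84, edgeR adjusted p = 0.0091). Apoa1, the acceptor of Abca1's cholesterol, had a log2 change of 0.09 and did not pass (edgeR adjusted p = 0.857).

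Of 26 measured genes of intracellular sterol movement and storage, 3 rose and 2 fell, with a median log2 change of 0.07. Npc1, which lets cholesterol leave lysosomes, rose by 0.54 and Osbpl1a, an oxysterol-binding protein, by 0.46, whereas Ces1d, a lipid hydrolase, had a change of -1.46 and Cav1, a caveolar protein, one of -0.87 (edgeR adjusted p = 0.0265, 0.0103, 0.00798 and 0.0322). The count of 5 became 2 without CD liver A or HFD liver B and 3 without CD liver B, C or D.

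Set in their families, Abcg5 and Abcg8 were 2 of 6 genes that rose among 39 measured ABC transporter genes, while 2 fell. Over all genes 7.27% were called in either direction and 3.63% as higher. At an unadjusted p under 0.05, 7 of the 39 were higher and 6 lower. The median log2 change of the 39 was 0.07. Others that rose were Abcd2 (1.52), which carries fatty acids into peroxisomes, Abcc6 (0.51) and Abcb1a (1.50), a multidrug exporter (edgeR adjusted p = 0.0238, 0.0261 and 0.0105). Those that fell were Abcb1b (-1.89) and Abcc3 (-0.65), an exporter on the sinusoidal side (edgeR adjusted p = 0.00744 and 0.0288). Abcb1a and Abcb1b are paralogs of similar sequence, and how reads that match both were counted is not given in the sources used here. Their levels were low, with means under CD and HFD of 2.22 and 6.29 CPM for Abcb1a and 2.93 and 0.789 CPM for Abcb1b. Of 10 canalicular and other bile transporters these paralogs were the only 2 that passed. When only genes at or above the median level were tested, the count was 0. Abcb11, which exports bile salts, had a change of 0.11, and Abcb4, which exports the phospholipid that carries biliary cholesterol, one of 0.34 (edgeR adjusted p = 0.652 and 0.106).

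**Figure D3:**
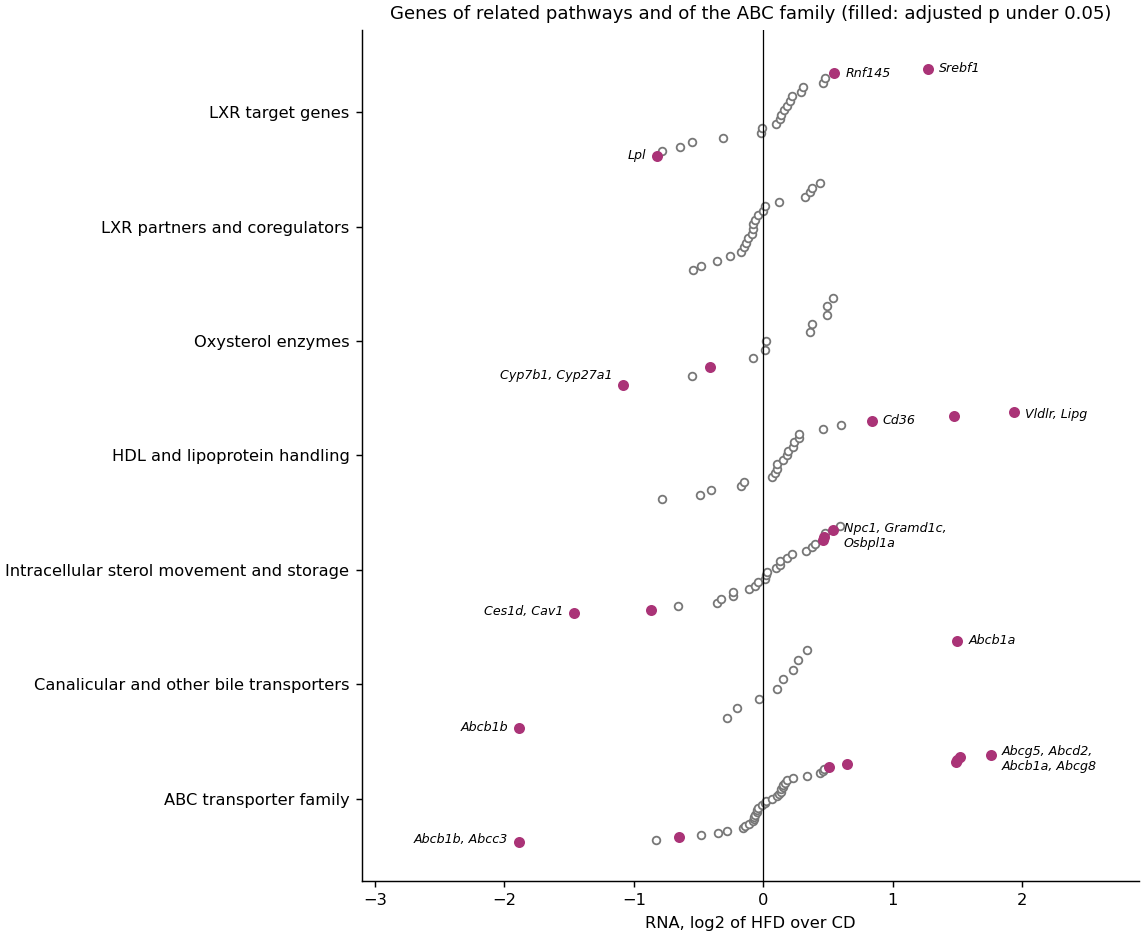
RNA change (log2 of HFD over CD, horizontal axis) of each measured gene in 6 fixed lists of sterol-related genes and in the ABC transporter family (rows, 1 circle per gene, spread vertically by rank). Filled circles passed at an adjusted p under 0.05 and are named from the largest change down, apart from those between 0 and 1 in the ABC family. In the ABC family Abcg5, at 1.76, lies farthest right, and Abcg8, at 1.49, lies beside Abcd2 and Abcb1a.

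The genes most like Abcg5 and Abcg8 in the livers included each other. Likeness was the root mean square difference between log2 CPM profiles over the 8 livers, each profile relative to its CD mean, among the 6166 genes whose mean level reached the median. Abcg8 was the nearest to Abcg5, at 0.21, followed by Hsd17b6 at 0.22, Fabp2 and Nr1d2 at 0.25 each, and Gnpda1 at 0.28. Abcg5 was the third nearest to Abcg8, at 0.21, behind Gnpda1 at 0.15 and Hsd17b6 at 0.20 and ahead of Fabp2 at 0.22 and Slc7a2 at 0.23. All of these genes rose under HFD, by 1.46 to 1.78 on the log2 scale, and the measure depends largely on that difference.

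H3K9ac over the shared promoter of Abcg5 and Abcg8 was higher under HFD, whereas the start-site regions of the other 4 genes did not pass. Of the 74 regions, 3 were called higher and none lower by edgeR, while over all 57499 regions 2.39% were called in either direction and 0.835% as higher. At an unadjusted p under 0.05, 10 of the 74 were higher and 7 lower, beside 6310 of all 57499 regions in either direction. DESeq2 called 2 of the 74 in either direction. The count of 3 became 1 without HFD liver B and 5 without HFD liver D. In 14 regions all HFD livers lay above all CD livers and in 6 below, and 15.4% of all regions had diets that did not overlap. The median log2 change of the 74 regions was 0.06, with 41 above 0 and 33 below.

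The shared promoter region, chr17:84681363-84685370, spans 4008 bases and both start sites, and the authors' table assigns it to Abcg8. The printed sequence lies inside it. Its level was 74.9, 85.8 and 66.7 CPM in CD livers A, C and D and 126, 126 and 90.9 CPM in HFD livers A, B and D. The lowest HFD liver lay above the highest CD liver. The means were 75.8 and 114 CPM (n = 3 each), a log2 change of 0.60 (SE 0.09, edgeR adjusted p = 8.91e-06).

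Further regions along both genes mostly leaned the same way with fewer reads. The only region assigned to Abcg5, chr17:84680414-84681094, lies 2168 bases from its start, in introns of Abcg5 and of an upstream form of Abcg8. It was measured at 1.88, 2.08 and 3.76 CPM under CD and 5.11, 5.39 and 3.62 CPM under HFD. CD liver D and HFD liver D crossed. It held only 21 to 62 counts per library, and its log2 change of 0.90 (SE 0.25, edgeR adjusted p = 0.0293) did not pass with DESeq2 (0.128) or without CD liver A (0.228), CD liver C (0.242), HFD liver A (0.135) or HFD liver B (0.294).

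Of the 13 regions assigned to Abcg8 up to the end of the gene, 10 had a log2 change above 0, with a median of 0.35. These 13 include the shared promoter region itself. An intronic region at chr17:84687896-84689287 was at 5.54, 6.42 and 5.05 CPM under CD and 11.1, 8.08 and 7.14 CPM under HFD. The diets were apart there, with a log2 change of 0.63 (SE 0.19) that did not pass in edgeR (adjusted p = 0.0636). The 5 regions beyond the end of Abcg8, of which 4 lie in the neighbouring gene Lrpprc, had a median of -0.29 with 2 above 0. One of these, chr17:84701937-84702378, had a change of 0.86 (SE 0.45, edgeR adjusted p = 0.485), with all HFD livers above all CD livers. Inside the gene, chr17:84699954-84700269 went the other way, with all HFD livers below all CD livers. Its change was -1.04 (SE 0.50, edgeR adjusted p = 0.432), on 3 to 19 counts per library. At an unadjusted p under 0.05, 4 of the 18 Abcg8 regions were higher and 2 lower.

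**Figure D4:**
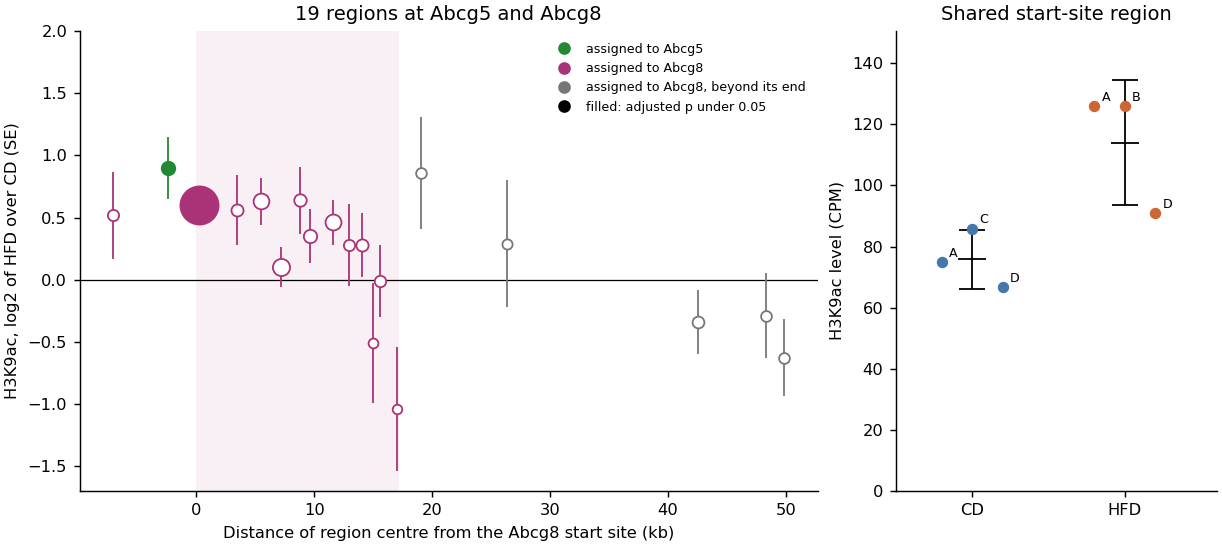
Left, change in H3K9ac (log2 of HFD over CD, bars SE) of 19 regions by the distance of their centre from the Abcg8 start site in kb. Circle size grows with the HFD level, and filled circles passed at an adjusted p under 0.05. The shaded band runs from the Abcg8 start site at the shared promoter to the end of the gene, without its upstream form. Right, level in CPM of the shared start-site region per library, letters naming the livers, with mean and SD of 3. The largest circle, at 0.60, is the shared promoter, and the regions beyond the gene have a median of -0.29.

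At Abca1 the promoter leaned higher under HFD and most of its other regions leaned lower, but none of these changes passed with all livers. Its start-site region, chr4:53158560-53160344, was at 100, 88.4 and 86.8 CPM under CD and 117, 108 and 103 CPM under HFD. The diets did not overlap. The log2 change of 0.25 (SE 0.08) did not pass in edgeR (adjusted p = 0.0958), and without HFD liver D it was 0.30 with an adjusted p of 0.0111. Without any other single liver it did not pass in edgeR. The adjusted p then lay between 0.0549 (without CD liver A) and 0.506 (without HFD liver A). With DESeq2 the adjusted p was 0.146.

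Of the 17 Abca1 regions, 13 had a change below 0 and the median was -0.32. In 5 of them all HFD livers lay below all CD livers, as in 4808 of all 57499 regions. Of these 5, 4 are neighbours in the gene, between 37118 and 42105 bases from the start. The most marked of these by level, chr4:53122249-53123303, was at 10.4, 8.67 and 8.02 CPM under CD and 6.47, 7.12 and 7.47 CPM under HFD (log2 change -0.37, edgeR adjusted p = 0.441). Its neighbour chr4:53119845-53120833 was at 8.4, 6.58 and 8.51 CPM under CD and 5.45, 5.82 and 4.72 CPM under HFD (-0.54, edgeR adjusted p = 0.157). None of the 17 passed in edgeR, and 4 were lower and 1 higher at an unadjusted p under 0.05. The difference between the promoter and the other regions was not tested.

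Scarb1 held the mark in 30 regions that cover 32336 bases. Its start-site region, chr5:125339060-125341819, was the highest of its 30 regions, at 143, 129 and 106 CPM under CD and 132, 123 and 126 CPM under HFD. The diets overlapped and the log2 change was 0.01 (edgeR adjusted p = 0.985), beside an RNA change of 0.84. An intronic region 15126 bases from the start, chr5:125325087-125326847, was at 18.2, 17.2 and 11.1 CPM under CD and 22.1, 21.2 and 24.8 CPM under HFD. All HFD livers were above all CD livers there, with a log2 change of 0.54 (SE 0.14, edgeR adjusted p = 0.0185). The call was lost without CD liver D (0.36, adjusted p = 0.229) and without HFD liver B (0.59, adjusted p = 0.0918). Its 3 next regions away from the start, out to 23017 bases, also had all HFD livers above all CD livers, with log2 changes of 0.33, 0.41 and 0.31 that did not pass (edgeR adjusted p = 0.267, 0.339 and 0.476). Of the 30 regions, 18 had a change above 0 and 12 below. At an unadjusted p under 0.05, 4 were higher and 1 lower. The lower region, the intronic chr5:125285602-125286220, was at 6.43, 7.67 and 3.86 CPM under CD. Under HFD it was at 4, 4 and 3.62 CPM (log2 change -0.63, edgeR adjusted p = 0.138).

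At the receptors the mark did not differ between diets beyond its spread. The Nr1h3 start-site region, chr2:91194169-91195401, was at 58.9, 54.5 and 43.8 CPM under CD and 57.1, 51.1 and 50.9 CPM under HFD (log2 change 0.02, edgeR adjusted p = 0.979). The Nr1h2 start-site region, chr7:44553294-44554266, was at 37.2, 44.8 and 50.5 CPM under CD and 45.6, 47.4 and 52.4 CPM under HFD (0.13, edgeR adjusted p = 0.706). The diets overlapped in both, and none of the 8 regions of these genes passed.

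**Figure D5:**
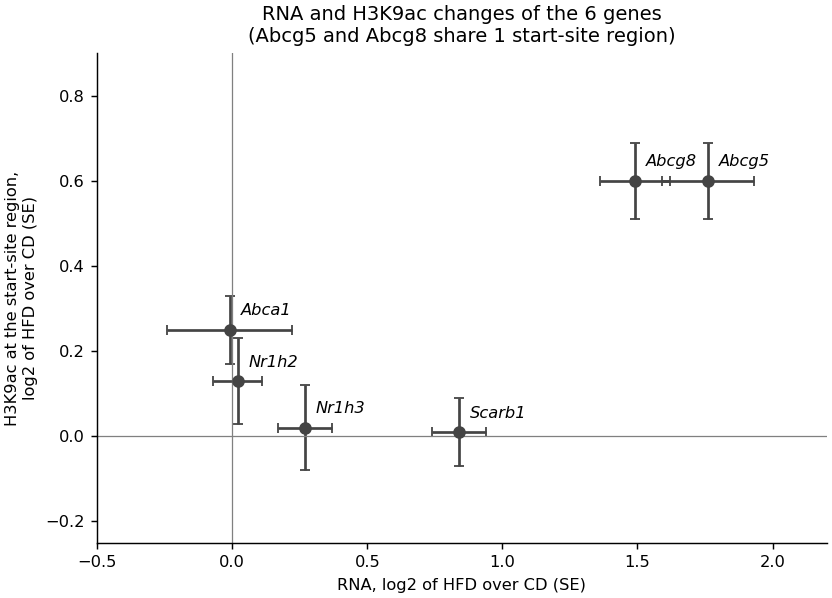
Change in RNA (horizontal axis) against change in H3K9ac at the start-site region (vertical axis) of the 6 genes, both as log2 of HFD over CD with SE bars. Abcg5 and Abcg8 share 1 region and so 1 vertical value, 0.60. Scarb1 lies at 0.84 in RNA and 0.01 in the mark, and Abca1 at -0.01 and 0.25.

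Counts were also summed over the regions of each gene, with 2.57% of 16415 genes called in either direction and 0.847% as higher. Of the 6 genes only Abcg8 passed. Its 18 regions, 15020 bases in all, summed to 128, 137 and 112 CPM under CD and 189, 186 and 144 CPM under HFD. The sums did not overlap, with means of 126 ± 12.6 and 173 ± 25.5 CPM (SD, n = 3 each) and a log2 change of 0.46 (SE 0.10, edgeR adjusted p = 0.0261). The shared promoter region, with means of 75.8 and 114 CPM by itself, is part of this sum, which is therefore not separate from it. That region also spans the Abcg5 start but is not counted for Abcg5, whose sum is its 1 region. Abcg8 no longer passed without CD liver A (0.0741), C (0.0529) or D (0.0786), or HFD liver A (0.133) or B (0.175), and the count of genes became 0 in these cases except without CD liver D, where Abcg5 passed (1.25, 0.0332). Without HFD liver D, Abcg5 passed beside Abcg8 (1.06, 0.0468).

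Several traits of the libraries moved with the diet or within it. RNA libraries held 31802893 to 37596560 counts and H3K9ac libraries 9255635 to 12149497. Of 16 clock genes, 10 rose and 4 fell, among them Dbp (6.57), Per3 (4.04), Nr1d2 (1.78) and Nfil3 (-1.72) on the log2 scale. The labels give neither the feeding state nor the time of day of collection. The part of these genes or of timing in the results was not tested. Summed hepatocyte markers, 12 measured, ranged from 104382 to 122393 CPM under CD and from 117384 to 146287 under HFD, and 1 of them, Cyp2e1, rose. At an unadjusted p under 0.05, 4 hepatocyte markers were higher and 1 lower, and DESeq2 called 3. Summed stellate cell markers ranged from 322 to 380 CPM under CD and from 233 to 484 under HFD, and those of 7 cholangiocyte genes from 85.8 to 102 and from 57.9 to 84.6, so the diets did not overlap in the cholangiocyte sum. Sox9 fell, the median log2 change of the 7 was -0.77 with all 7 below 0, 5 were lower at an unadjusted p under 0.05, and DESeq2 called 2. None of 15 macrophage, 12 endothelium and 13 stellate cell markers passed in edgeR or DESeq2, with 0, 0 and 2 at an unadjusted p under 0.05. No measured marker was at 0, and only 2 of 9 lymphocyte markers were in the table. Without HFD liver D, 1 stellate marker and 2 cholangiocyte markers passed, and 2 hepatocyte markers passed without HFD liver A and 0 without HFD liver B. The changes of Abcg5 and Scarb1 with the macrophage level as a term were 1.78 and 0.85.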

How the data were processed

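Per the file headers, the authors' RNA and H3K9ac tables hold raw read counts and log2 values (FPKM for RNA, CPM for H3K9ac). Both also give the authors' own comparison, as a deposited log2 fold change with its p-value and false discovery rate. Coordinates are in mm10, the build named by the submitters' processing notes. For the aligner, peak caller, counter and use of strand, the sources used here give no name. The RNA table has 12334 genes beside 4999 blank lines, left out here, and its lowest mean count was 13.9, so low genes were not measured. Of 57499 H3K9ac regions, 71 were listed more than once and used once. In 119 lines the gene name had become a date. An input library and 2 ATAC-seq libraries were not analysed here.

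Counts were fitted over whole tables with edgeR 4.0.16 in R 4.3.3 (TMM factors, filterByExpr, diet as the only term, glmQLFTest, two-sided, Benjamini-Hochberg adjustment), separately for RNA, regions and sums per gene, and the scripts were tested on simulated data. DESeq2 1.42.0, other scalings and filters, a block by letter and leaving out each library were the alternatives. A count of 3 corresponds to 0.0798 to 0.0943 CPM in RNA and 0.247 to 0.324 CPM in H3K9ac. Libraries differed by more than sampling noise (chi-square per degree of freedom at least 32 and 1.49). Promoter sequences are from RefSeq, GRCm38.p6, where 5 of the 6 genes had a window.

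The 6 genes and the gene lists were chosen with earlier results of these data known. Genes named are the 6, up to 4 of each list that passed with the smallest p, ABC transporters that passed (1 is not reported here), and the 5 genes nearest to Abcg5 and to Abcg8. Genes of a list named without having passed were chosen after their values were seen.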

Additional observations from a re-analysis of the deposited data

Results flagged for a closer look

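CD liver A had the lowest Abcg5 RNA of its diet, 35.7 CPM, while the other CD livers lay between 46.1 and 48.2, a gap of 0.832 of the whole range. The same liver had the lowest Abcg8 RNA, 63.7 CPM, against 76.9 to 79.3 in the others, a gap of 0.846 of the range. Each was marked because 1 sample stood far from the others of its group. Chance marks about 1 in 20 groups, and 28 groups were looked at. Abcg5 and Abcg8 passed the test with and without this liver.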

How the results depend on the processing

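The RNA changes of Abcg5, Abcg8 and Scarb1 kept their direction and their call under all 16 alternatives. Those of Abca1 and Nr1h2 passed under none, and near 0 their sign turned: Abca1 ranged from -0.17 to 0.17 over the fits without 1 liver, and Nr1h2 from -0.03 to 0.06, with -0.03 on library totals and -0.02 when only genes reaching the median level were tested. Nr1h3 passed with the macrophage level as a term (0.28). Without 1 liver, the start-site H3K9ac of Nr1h3 ranged from -0.09 to 0.11, that of Scarb1 from -0.09 to 0.11, and the sums of Abca1 from -0.06 to 0.12, Nr1h3 from -0.07 to 0.13, Scarb1 from -0.05 to 0.20 and Abcg8 from 0.38 to 0.58. The 3 called regions became 1 among regions at or above the median level and 1 to 5 without 1 liver, and the single called sum became 0 to 2. The Abcg8 to Abcg5 ratio ranged from -0.32 to -0.19 and the Nr1h3 to Nr1h2 ratio from 0.20 to 0.31 without 1 liver.

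Of 104 list genes, 15 passed, 9 at or above the median level, 23 with the endothelium and 24 with the macrophage level as a term, and 8 to 17 without 1 liver. Called genes over all RNA (897) became 1405 with DESeq2, 543 at or above the median level, 1566 and 1657 with the endothelium and macrophage terms, and 478 to 1107 without 1 liver. Called regions (1372) became 813 with DESeq2, 887 at or above the median level and 563 to 1862 without 1 liver. Called sums (422) became 135 to 712 without 1 liver. The cause of these shifts was not tested, apart from fewer features or livers in a fit.

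The deviations of same-lettered livers correlated at 0.29, 0.06, 0.23 and -0.22 in RNA and 0.09 and 0.08 in H3K9ac, so the letters are not taken as pairs. With the replicate block, the sum of Abca1 was -0.05, the Abcg5 region 0.68 without its call (adjusted p = 0.317), the Abcg8 to Abcg5 ratio -0.26 (exact paired p = 0.125), and 687 sums were called. Depth limits the Abcg5 region, with 21 to 62 counts per library.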
